A study of Mus musculus with 18 samples.

Results

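CC chemokine ligands were followed through LPS stimulation, loss of IRF5 and treatment with defactinib in mouse macrophages. The 10 genes Ccl2, Ccl3, Ccl4, Ccl5, Ccl6, Ccl7, Ccl9, Ccl12, Ccl17 and Ccl22 were taken by symbol from the 50600 genes of the count table, and all 10 passed the filter on low counts that left 15663 genes to test. RNA-seq of bone marrow-derived macrophages (BMDMs) grown with GM-CSF for 8 days was available for 6 groups of 3 libraries. The groups of WT mice were unstimulated (WT unstimulated), given DMSO, the vehicle, for 1 h and then LPS at 100.0 ng/ml for 2 h (WT LPS DMSO), or given 3.5 µM defactinib for 1 h and then the same LPS (WT LPS defactinib). IRF5 KO mice, whole-animal knockouts of the transcription factor IRF5, gave 3 groups treated alike, named in the same way after the genotype. Defactinib is a small molecule that inhibits the kinases FAK and PYK2. DMSO is given by the labels for the unstimulated libraries too, while their column names call them untreated. The study's methods give male C57BL/6J mice for its animals in general, while the labels give age and sex for no library and do not say whether the 3 libraries of a group came from separate animals, so the p-values measure the spread between these libraries, part of which may be technical.

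CC chemokines are small secreted proteins, named for a pair of neighbouring cysteines near their start, that bind to receptors with several membrane passes on leukocytes and direct their movement. Macrophages sensing the bacterial wall component LPS through TLR4 switch on many of these genes through NF-kB and IRF factors, and the ligands made then set which cells are drawn in. CCL2, CCL7 and CCL12 attract monocytes through CCR2. CCL3, CCL4 and CCL5 attract monocytes and T cells. CCL17 and CCL22 attract T cells through CCR4. CCL6 and CCL9, found in rodents, act through CCR1 and are made by macrophages without stimulation.

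Counted read pairs ranged from 39282181 to 61949143 per library, with a median of 45317217. Irf5, summed over all its exons, was at 587 to 650.3 CPM (read pairs scaled to library size) in WT unstimulated and 335 to 397 in IRF5 KO unstimulated. With LPS and DMSO it was at 434 to 475 in WT and 345 to 435 in IRF5 KO, where the ranges just met. With LPS and defactinib it was at 213 to 379 and 353 to 392, which overlapped. This sum thus separated the genotypes only before stimulation, and it cannot show which exons were removed. The macrophage markers (8 genes) summed to 9376 to 18878 CPM and the dendritic cell markers (8 genes) to 10793 to 22440.0 CPM, and no gene of either list was under 1 CPM in all libraries. Of the other lists, all 6 B cell markers, 7 of 8 T and NK cell markers, 4 of 6 stromal markers and 4 of 8 mast cell and basophil markers (Fcer1a, Ms4a2, Mcpt8 and Tpsb2) stayed under 1 CPM in every library, as did the neutrophil granule genes Mpo and Elane among 8 neutrophil markers and 0 of 4 eosinophil markers. The B cell, T and NK cell and stromal lists summed to at most 6.96 CPM in any library. A pair of libraries stood apart from their groups. The chi-square per gene between IRF5 KO LPS DMSO replicates 1 and 2 was 2.33, and between these and replicate 3 it was 441 and 425, against 3.82 to 183 in the other groups, where the highest values were those of WT LPS defactinib replicate 3. The main results that rest on either library are given with and without it. The spread of each gene was estimated over all groups together, so these libraries also enter the standard errors of comparisons that do not hold them.

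The 10 genes lie in 3 groups in the mouse genome (mm10). Ccl2 (chr11:82035571-82037453), Ccl7 (chr11:82045712-82047525) and Ccl12 (chr11:82101845-82103400) follow each other on the plus strand of chromosome 11. Ccl5 (chr11:83525778-83530518), Ccl9 (chr11:83572919-83578636), Ccl6 (chr11:83587882-83593087) and Ccl3 (chr11:83647844-83649355) on the minus strand and Ccl4 (chr11:83662584-83664683) on the plus strand begin 1422.4 kb farther along. Ccl22 (chr8:94745590-94751699) and Ccl17 (chr8:94810453-94812036) are on the plus strand of chromosome 8. All are annotated as protein-coding, and the counts cover their exons. Antisense genes overlap Ccl2 (Gm17268, with 0 counts) and Ccl6 (E230016K23Rik, with at most 2209 counts in a library), and the counting kept the strands apart.

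The stretch before the start of a gene is where the general transcription machinery and, often, inducible factors bind. The RefSeq table (GRCm38.p6) held windows for 6 of the genes, Ccl3, Ccl6, Ccl9, Ccl12, Ccl17 and Ccl22, and Ccl2, Ccl4, Ccl5 and Ccl7 were not matched. For Ccl3 and Ccl22 the RefSeq start differs from the gene position given above. The Ccl3 window begins at 83649379, outside the position that ends at 83649355. The Ccl22 window ends at 94745683, inside the position that begins at 94745590. The 250 bases before the start are printed, 5′ to 3′ on the gene's strand, for Ccl3 and Ccl12, which rose with LPS and fell with defactinib in WT, and for Ccl9 and Ccl6, which passed the threshold in no comparison. Capitals mark matches on either strand to the NF-kB consensus (kB), to the core of the interferon-stimulated response element (GAAA, a pair of any bases, GAAA) or to the TATA box TATAAA.

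Ccl3 (chr11:83649379-83649628, minus strand): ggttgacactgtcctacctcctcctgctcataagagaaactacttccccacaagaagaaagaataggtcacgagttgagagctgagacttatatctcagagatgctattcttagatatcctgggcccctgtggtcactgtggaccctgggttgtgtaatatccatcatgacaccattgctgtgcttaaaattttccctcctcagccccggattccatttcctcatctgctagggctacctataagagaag

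Ccl12 (chr11:82101595-82101844, plus strand): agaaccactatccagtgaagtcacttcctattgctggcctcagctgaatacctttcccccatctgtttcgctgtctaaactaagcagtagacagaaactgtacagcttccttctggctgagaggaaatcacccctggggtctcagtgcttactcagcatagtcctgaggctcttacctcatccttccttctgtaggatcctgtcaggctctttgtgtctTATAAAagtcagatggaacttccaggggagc

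Ccl9 (chr11:83578637-83578886, minus strand): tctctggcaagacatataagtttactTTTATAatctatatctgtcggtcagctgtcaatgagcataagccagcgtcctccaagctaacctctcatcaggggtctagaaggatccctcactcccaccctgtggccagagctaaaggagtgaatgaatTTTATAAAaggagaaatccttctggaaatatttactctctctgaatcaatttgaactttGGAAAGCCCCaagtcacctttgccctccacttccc

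Ccl6 (chr11:83593088-83593337, minus strand): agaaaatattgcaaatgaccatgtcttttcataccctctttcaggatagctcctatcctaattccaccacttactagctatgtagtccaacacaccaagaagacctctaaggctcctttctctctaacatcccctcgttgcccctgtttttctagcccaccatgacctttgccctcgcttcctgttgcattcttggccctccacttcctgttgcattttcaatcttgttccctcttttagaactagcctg

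Of the 6 windows, 1 held the kB consensus (Ccl9, at -35 to -26 from the start), 0 held the interferon-stimulated response core and 2 held the TATA box (Ccl12 at -31 to -26, and Ccl9 at 3 places, the TATA matches at -94 to -89 and -92 to -87 overlapping each other). Among all 32851 windows of the same length, 7.25% held the kB consensus, 2.98% the interferon-stimulated response core and 12.4% the TATA box. Ccl3, Ccl6, Ccl17 and Ccl22 held none of these letters in this window. A match is a description of letters and was not tested for binding.

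Levels of the genes were compared per length, as CPM per kilobase of exon length. Ccl17 had the highest level in all 6 groups, with means of 7855 in WT unstimulated, 10239 in WT LPS DMSO and 3811 in IRF5 KO unstimulated, and its libraries overlapped those of no other ligand. Ccl6 and Ccl22 came next in both unstimulated groups, at 1873 and 1254 in WT. Ccl3 at 904, Ccl9 at 814 and Ccl4 at 368 followed there, with overlapping libraries of Ccl3 and Ccl9. Ccl2 (81.4), Ccl5 (37.6), Ccl7 (4.75) and Ccl12 (1.20) closed the order. Ccl7 and Ccl12 were the lowest in all 6 groups.

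With LPS the order in WT became Ccl17, Ccl22 (5619), Ccl3 (2888), Ccl4 (2412), Ccl6 (1927), Ccl5 (1505), Ccl9 (1288) and then Ccl2, Ccl7 and Ccl12, where Ccl3 and Ccl4, Ccl4 and Ccl6, and Ccl5 and Ccl9 overlapped. In WT LPS defactinib Ccl3 stood at 332 and Ccl4 at 536, both below Ccl6 at 2469 and Ccl9 at 1269. The mean of Ccl5 there, 1118, rested on replicate 3, and by medians Ccl5 came after Ccl4 and Ccl3. In IRF5 KO LPS DMSO, Ccl3, Ccl4 and Ccl9 overlapped at 854, 831 and 722, and by medians Ccl9 came first of them. The sum of the 10 genes was 12750.5 to 13464 CPM per kb in WT unstimulated, 24371 to 28544 in WT LPS DMSO and 18023 to 20483 in WT LPS defactinib, against 8251 to 8889, 13675 to 14692 and 12789.5 to 13558 in the IRF5 KO groups. As a share of all counted pairs the ligands took 1.498% to 1.55%, 2.51% to 2.90% and 2.17% to 2.61% in the WT groups and 1.33% to 1.40%, 1.61% to 2.00% and 1.52% to 1.62% in the IRF5 KO groups.

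**Figure D1:**
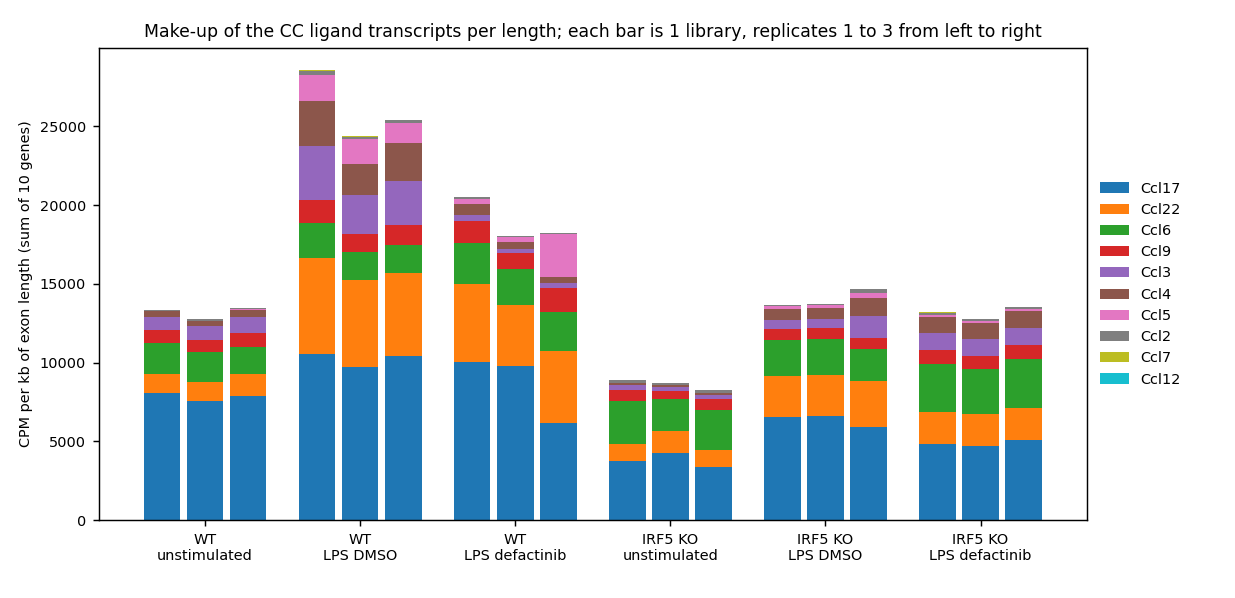
Stacked bars of CPM per kb of exon length for the 10 CC ligands, 1 bar per library, 3 libraries per group. WT LPS DMSO bars reach 24371 to 28544 CPM per kb, Ccl17 and Ccl22 make up most of each bar, and the Ccl5 segment is large in 1 of the 3 WT LPS defactinib libraries.

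LPS raised most of the ligands in WT macrophages. Of the 10 genes 7 rose (Ccl2, Ccl3, Ccl4, Ccl5, Ccl7, Ccl12 and Ccl22), where 11.6% of all tested genes did, called at a false discovery rate under 0.05 and a fold change over 2 by the quasi-likelihood test of edgeR with Benjamini-Hochberg adjustment over all tested genes. None fell (0, also 0 at an unadjusted p under 0.05, by DESeq2 and by limma-voom), where 9.71% of all genes did. The median log2 fold change was 1.83 over the 10 genes and -0.0045 over all genes. In such bulk samples, fewer cells of a type and less RNA per cell cannot be told apart. Values below are CPM for replicates 1, 2 and 3 in this order, and each log2 fold change is given ± its standard error. Over the same libraries the neutrophil list summed to 53.0 to 71.4 CPM unstimulated and 106 to 203 CPM with LPS, the mast cell and basophil list to 10.7 to 11.6 and 45.3 to 58.0 CPM, the eosinophil list to 67.7 to 74.6 and 112 to 137 CPM and the dendritic cell list to 14570.2 to 15423 and 16874 to 20612 CPM. Within the neutrophil and mast cell lists, S100a8 was at 23.6 to 31.8 and 46.4 to 88.2 CPM and Hdc at 0.389 to 0.655 and 31.9 to 42.5 CPM, while 2 of 8 neutrophil and 4 of 8 mast cell and basophil markers stayed under 1 CPM. The part of these markers in the differences was not tested.

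Ccl2, Ccl7 and Ccl12, the ligands of CCR2, rose together. Ccl2 was at 93.5, 86.5 and 98.1 CPM unstimulated and 296, 195 and 191 CPM with LPS, a log2 fold change of 1.29 ± 0.30 (adjusted p = 0.00232). Ccl7 was at 4.01, 3.40 and 4.0 CPM and 20.04, 12.5 and 12.8 CPM, a change of 1.99 ± 0.60 (adjusted p = 0.0148). Fitted without IRF5 KO LPS DMSO replicate 3, which is not in this comparison, the change of Ccl7 was 1.99 ± 0.25 (adjusted p = 4.41e-06). Ccl12 was at 0.8801, 0.643 and 0.412 CPM and 3.66, 5.91 and 3.13 CPM, a change of 2.71 ± 0.51 (adjusted p = 0.000468). For each of the 3, every stimulated library lay above every unstimulated one, although Ccl12 rested on only 20 to 47 read pairs per unstimulated library and 123 to 231 per stimulated one. The call for Ccl7 was lost without WT unstimulated replicate 2 and without WT LPS DMSO replicate 1, and that for Ccl2 under scaling by library size alone.

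Ccl3, Ccl4 and Ccl5, attractants of monocytes and T cells, also rose. Ccl3 went from 641, 639 and 796 CPM to 2627, 1904 and 2105 CPM, which was 3.20-fold (log2 1.68 ± 0.26, adjusted p = 9.02e-05). Ccl4 went from 225, 219.9 and 285 CPM to 1903, 1282 and 1592 CPM, which was 6.55-fold (log2 2.71 ± 0.24, adjusted p = 3.2e-07). Ccl5 had the largest change of the 10: from 32.8, 33.3 and 42.1 CPM to 1571, 1528 and 1234 CPM, 40.0-fold (log2 5.32 ± 0.73, adjusted p = 3.48e-05). The stimulated and unstimulated libraries of these genes did not overlap.

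The CCR4 ligands parted. Ccl22 went from 2770.4, 2754 and 3224 CPM to 14085, 12783 and 12323 CPM (log2 2.16 ± 0.12, adjusted p = 4.78e-09), while its neighbour Ccl17, at 4161, 3901 and 4051 CPM unstimulated and 5434, 5014 and 5340.4 CPM with LPS, differed by 0.38 ± 0.14 (adjusted p = 0.0385), under the fold threshold. Ccl9 differed by 0.66 ± 0.15 (adjusted p = 0.00187), from 2488, 2388 and 2564 CPM to 4378, 3461 and 3924 CPM, also under that threshold. Ccl6, at 3525, 3425 and 3138 CPM and 4014, 3166 and 3199 CPM, overlapped between the groups (log2 0.041 ± 0.12, adjusted p = 0.813). High levels before stimulation were thus shared by ligands that rose by over 2-fold and ligands that did not.

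**Figure D2:**
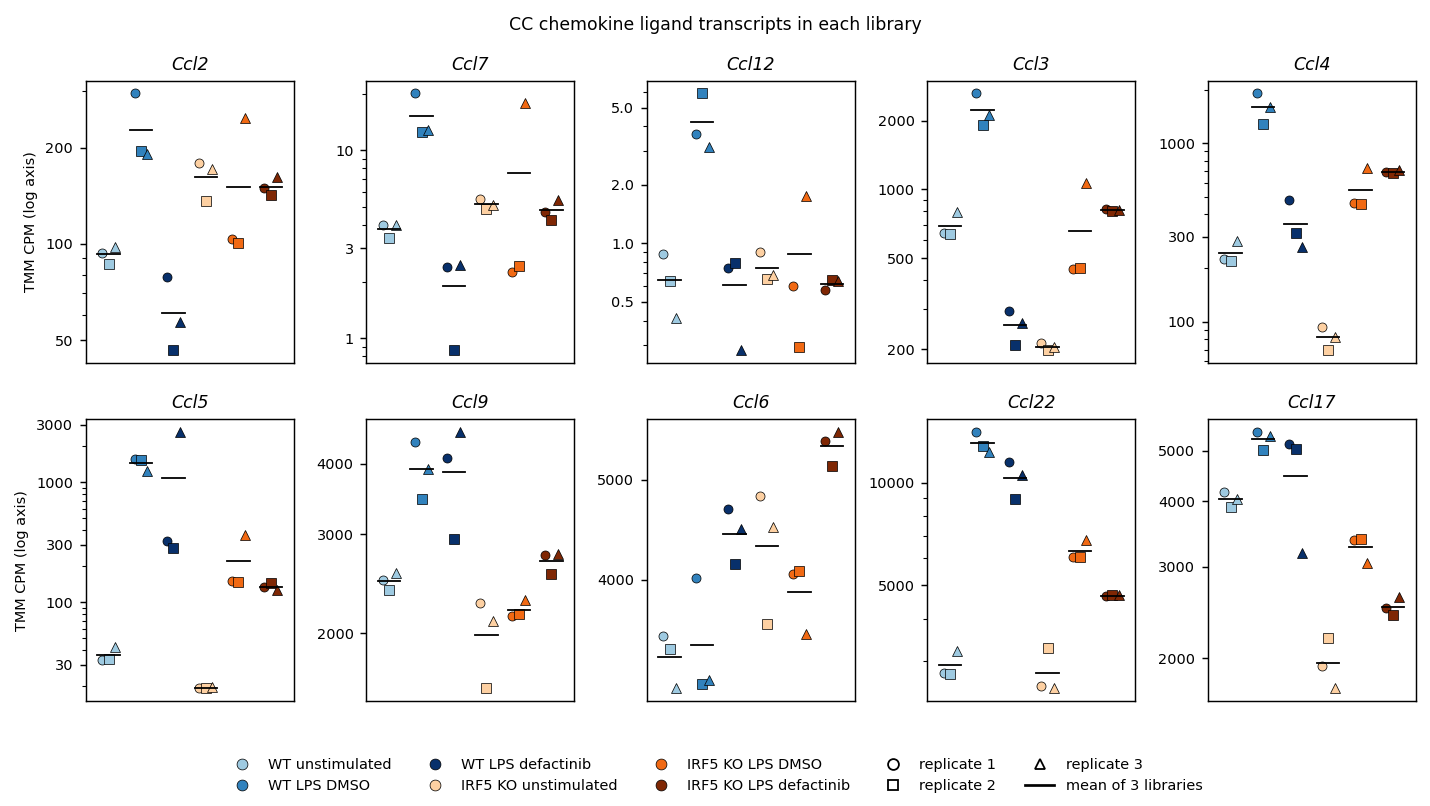
CPM of each CC ligand in each of the 18 libraries on a log axis, with its own scale per gene, symbols for replicates and a line at the mean of 3. Ccl2, Ccl7, Ccl12, Ccl3 and Ccl4 are high in WT LPS DMSO and low in WT LPS defactinib. IRF5 KO LPS DMSO replicate 3 (triangle) lies above replicates 1 and 2 for Ccl2, Ccl7, Ccl12, Ccl3, Ccl4 and Ccl5.

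In IRF5 KO macrophages 4 of the 10 ligands rose with LPS (Ccl3, Ccl4, Ccl5 and Ccl22), where 7.07% of all tested genes did, and 0 fell (0 at an unadjusted p under 0.05, by DESeq2 and by limma-voom), where 6.28% of all genes did. The median log2 fold change was 0.65 over the 10 genes and 0.0063 over all genes. Without IRF5 KO LPS DMSO replicate 3 the same 4 rose and Ccl7 fell, against 9.64% and 16.6% of all genes. Between the unstimulated and LPS DMSO libraries the neutrophil list went from 66.3 to 77.8 to 137 to 149 CPM, the eosinophil list from 45.1 to 62.3 to 67.4 to 82.6 CPM and the dendritic cell list from 10793 to 12539.7 to 14623 to 22440.0 CPM, and their part was not tested.

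Ccl3, an attractant of monocytes and T cells, went from 212, 198 and 205 CPM to 448, 452 and 1062 CPM (log2 1.67 ± 0.26, adjusted p = 0.000694, and 1.13 ± 0.14 without replicate 3). Ccl4 went from 93.6, 69.7 and 82.1 CPM to 465, 457 and 723 CPM (log2 2.74 ± 0.24, adjusted p = 2.28e-06). Both genes started lower than in WT. Ccl3 lost its call when only the groups compared were fitted. The genotype by LPS interaction, in log2 units of the WT change minus the IRF5 KO change, was 0.0019 ± 0.36 for Ccl3 (95% interval -0.70 to 0.71) and -0.034 ± 0.31 for Ccl4 (95% interval -0.65 to 0.58). For Ccl3 it was 0.54 ± 0.18 without IRF5 KO LPS DMSO replicate 3. Ccl5 went from 19.2, 19.3 and 19.6 CPM to 151, 148 and 361 CPM (log2 3.51 ± 0.67, adjusted p = 0.00253), 11.4-fold, and without replicate 3 by 2.95 ± 0.73. Its interaction of 1.82 ± 0.87 did not pass (adjusted p = 0.161), and passed at 1.80 ± 0.37 without WT LPS defactinib replicate 3 (adjusted p = 0.00400). Ccl22 went from 2544, 3289 and 2497 CPM to 6064, 6072 and 6803 CPM (log2 1.18 ± 0.12, adjusted p = 1.38e-05), and its interaction of 0.98 ± 0.17 had an adjusted p of 0.00146 but lay just under the fold threshold. The call of Ccl22 in IRF5 KO was lost under scaling by library size alone. Ccl17 was at 1933, 2191 and 1752 CPM and 3375, 3389.7 and 3053 CPM (log2 0.74 ± 0.14, adjusted p = 0.00224), under the fold threshold as in WT. Ccl6 (4819, 3619 and 4500.5 CPM, then 4046, 4079.8 and 3542 CPM) and Ccl9 (2266, 1597 and 2105 CPM, then 2144, 2163 and 2289 CPM) overlapped between unstimulated and stimulated libraries, with log2 differences of -0.15 ± 0.12 and 0.14 ± 0.15 (adjusted p = 0.320 and 0.450).

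The CCR2 ligands did not pass the test in IRF5 KO, and here the libraries split. Ccl2 was at 179, 136 and 171 CPM unstimulated and 103, 101 and 248 CPM with LPS (log2 -0.11 ± 0.29, adjusted p = 0.796). Ccl7 was at 5.50, 4.85 and 5.11 CPM and 2.25, 2.41 and 17.9 CPM (log2 0.55 ± 0.59, adjusted p = 0.471). Ccl12 was at 0.904, 0.654 and 0.688 CPM and 0.606, 0.292 and 1.74 CPM (log2 0.25 ± 0.50, adjusted p = 0.711). For all 3, replicates 1 and 2 lay below the unstimulated libraries and replicate 3 above them. Replicate 3 was at 7.67 times the mean of replicates 1 and 2 for Ccl7, 3.88 times for Ccl12 and 2.43 times for Ccl2, at 2.41, 2.36 and 1.57 times for Ccl5, Ccl3 and Ccl4, and at 0.872 to 1.121 times for Ccl6, Ccl17, Ccl9 and Ccl22. Without it, Ccl7 fell with LPS (log2 -1.15 ± 0.30, adjusted p = 0.00395), and Ccl2 differed by -0.67 ± 0.20 (adjusted p = 0.0101). With it as the lone library of its group, whose spread is then taken from the other groups, Ccl7 rose by 1.81 ± 0.32 (adjusted p = 0.00245).

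The test of the difference between genotypes in the response to LPS called 2 of the 10 genes as higher in WT (Ccl2 and Ccl12), where 6.33% of all genes were, and 0 as lower (0 at an unadjusted p under 0.05, by DESeq2 and by limma-voom), where 3.49% were. The interaction was 1.40 ± 0.41 for Ccl2 (adjusted p = 0.0307) and 2.45 ± 0.71 for Ccl12 (adjusted p = 0.0270), with median 0.75 over the 10 genes and -0.059 over all genes. Ccl2 held under 15 of 27 alternatives and Ccl12 under 21 of 27. Without IRF5 KO LPS DMSO replicate 3 it called 4 (Ccl2, Ccl7, Ccl12 and Ccl22) as higher and 0 as lower, where 16.5% and 7.02% of all genes were. Without replicates 1 and 2 it called 0 as higher and 0 as lower, where 2.55% and 3.93% of all genes were.

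**Figure D3:**
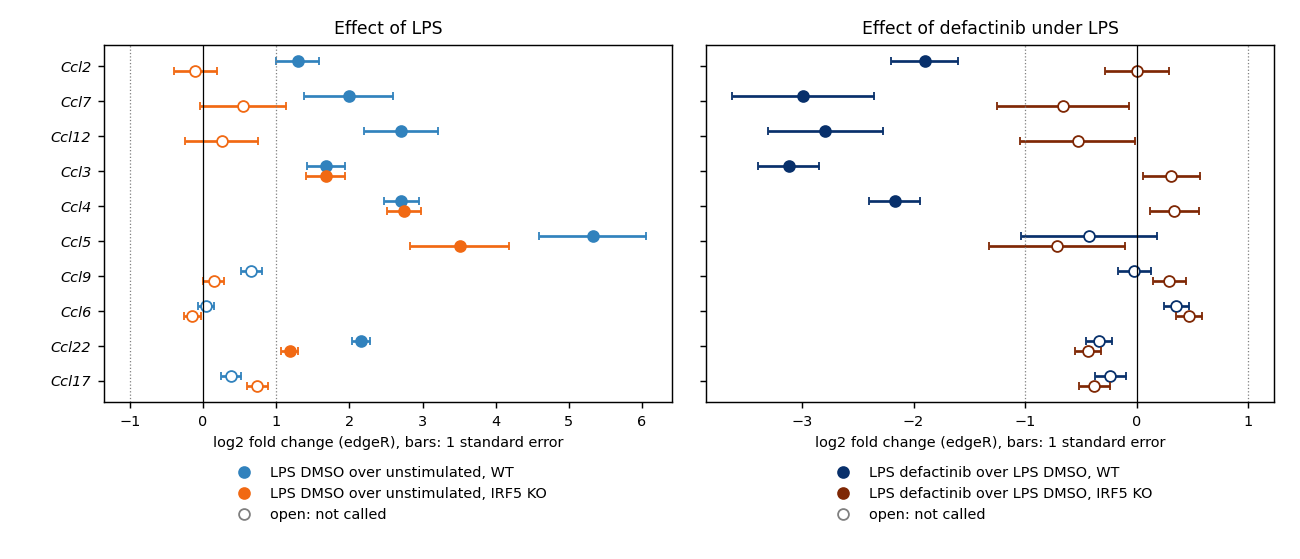
Log2 fold changes of each CC ligand with 1 standard error, for LPS DMSO over unstimulated (left) and LPS defactinib over LPS DMSO (right), in WT and IRF5 KO, with dotted lines at the fold threshold and open symbols where the gene was not called. Defactinib changes of Ccl2, Ccl7, Ccl12, Ccl3 and Ccl4 lie between -3.12 and -1.90 in WT and between -0.66 and 0.34 in IRF5 KO.

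Before stimulation 3 of the 10 ligands were higher in WT than in IRF5 KO (Ccl3, Ccl4 and Ccl17), where 3.8% of all genes were. None was lower (0, with Ccl2 and Ccl6 the 2 at an unadjusted p under 0.05, and 0 by DESeq2 and by limma-voom), where 3.51% of all genes were. The median difference was 0.19 over the 10 genes and -0.011 over all genes. Ccl3 was at 641, 639 and 796 CPM in WT and 212, 198 and 205 CPM in IRF5 KO (log2 1.76 ± 0.26, adjusted p = 0.000231). Ccl4 was at 225, 219.9 and 285 CPM and 93.6, 69.7 and 82.1 CPM (log2 1.57 ± 0.23, adjusted p = 0.000171). Ccl17 was at 4161, 3901 and 4051 CPM and 1933, 2191 and 1752 CPM (log2 1.04 ± 0.14, adjusted p = 9.52e-05), and its call, close to the fold threshold, was lost without IRF5 KO unstimulated replicate 3 and under scaling by library size alone. These levels were distinct in every library. Ccl2 was the other way round, at 93.5, 86.5 and 98.1 CPM in WT and 179, 136 and 171 CPM in IRF5 KO, a difference of -0.81 ± 0.29 that did not pass (adjusted p = 0.0797). Fitted without IRF5 KO LPS DMSO replicate 3, which is not in this comparison, it was -0.81 ± 0.18 (adjusted p = 0.00337), under the fold threshold. Ccl22 overlapped between the genotypes (log2 0.071 ± 0.12, adjusted p = 0.795). Ccl6 (-0.36 ± 0.12), Ccl7 (-0.44 ± 0.59) and Ccl12 (-0.21 ± 0.51) had negative differences and Ccl5 (0.90 ± 0.62) and Ccl9 (0.32 ± 0.15) positive ones, none past the threshold. In the same libraries the macrophage marker Adgre1 was at 70.3 to 75.2 CPM in WT and 291 to 320.2 in IRF5 KO, while Mertk went the other way (63.0 to 68.9 and 44.99 to 48.3 CPM) and Cd68 overlapped (258 to 288 and 197 to 297 CPM). The macrophage list summed to 9785 to 10128 and 10297 to 14649.9 CPM and the dendritic cell list to 14570.2 to 15423 and 10793 to 12539.7 CPM. The mast cell and basophil list summed to 10.7 to 11.6 CPM in WT and 49.1 to 57.4 in IRF5 KO, with its Gata2 at 3.16 to 3.35 and 30.8 to 34.1 CPM, and the eosinophil list to 67.7 to 74.6 and 45.1 to 62.3 CPM. The part of cell make-up in the difference was not tested.

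With LPS and DMSO 5 of the 10 ligands were higher in WT than in IRF5 KO (Ccl3, Ccl4, Ccl5, Ccl12 and Ccl22), where 14% of all genes were. None was lower (0, with 0 at an unadjusted p under 0.05, by DESeq2 and by limma-voom), where 11.8% of all genes were. The median difference was 1.02 over the 10 genes and -0.047 over all genes. Ccl5 differed most, at 1571, 1528 and 1234 CPM in WT and 151, 148 and 361 CPM in IRF5 KO (log2 2.72 ± 0.65, adjusted p = 0.00299). Ccl12 was 4.71-fold higher in WT (log2 2.24 ± 0.50, adjusted p = 0.00171). Ccl3 was 3.38-fold and Ccl4 2.90-fold higher (log2 1.76 ± 0.26 and 1.54 ± 0.23, adjusted p = 6.56e-05 and 5.85e-05), where the differences before stimulation were 1.76 and 1.57. Ccl22, at 14085, 12783 and 12323 CPM in WT and 6064, 6072 and 6803 CPM in IRF5 KO, was 2.07-fold higher (log2 1.05 ± 0.12, adjusted p = 5.75e-06), a call lost without WT LPS DMSO replicate 1 and under scaling by library size alone. Every WT library of these 5 genes lay above every IRF5 KO library, including replicate 3. Ccl9 (0.83 ± 0.15, adjusted p = 0.000287) and Ccl17 (0.69 ± 0.14, adjusted p = 0.000941) were under the fold threshold, and Ccl6 overlapped between the genotypes (-0.17 ± 0.12, adjusted p = 0.232). In these libraries the eosinophil list summed to 112 to 137 CPM in WT and 67.4 to 82.6 in IRF5 KO, which did not overlap. The macrophage (9376 to 9876 and 9607 to 12319 CPM), mast cell and basophil (45.3 to 58.0 and 49.4 to 101 CPM), dendritic cell and neutrophil lists overlapped. Within the macrophage list Adgre1 was at 83.0 to 100.5 and 365 to 671 CPM and Mertk at 124 to 182 and 25.7 to 42.4 CPM, in opposite directions. The part of these markers in the difference was not tested.

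Ccl2 and Ccl7 overlapped between the genotypes under LPS only through replicate 3, which was at 248 CPM for Ccl2 and 17.9 CPM for Ccl7, within the range of the WT libraries. Without that library 7 of the 10 ligands were higher in WT, with Ccl2 at 1.15 ± 0.21 (adjusted p = 0.000148) and Ccl7 at 2.70 ± 0.31 (adjusted p = 1.2e-06) added, and Ccl5 was at 3.27 ± 0.83, Ccl12 at 3.22 ± 0.44 and Ccl3 at 2.30 ± 0.15. Of all genes 20.7% were then higher and 13.8% lower. With it alone, 3 were higher (Ccl3, Ccl4 and Ccl12) and 0 lower, where 7.59% and 8.36% of all genes were.

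Defactinib lowered 5 of the 10 ligands in LPS-stimulated WT macrophages (Ccl2, Ccl3, Ccl4, Ccl7 and Ccl12), where 18.6% of all tested genes fell. None rose (0, with Ccl6 the 1 at an unadjusted p under 0.05, and 0 by DESeq2 and by limma-voom), where 10.4% of all genes did. The median log2 fold change was -1.16 over the 10 genes and 0.086 over all genes. This comparison and the LPS comparison share the WT LPS DMSO libraries.

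The decreases of Ccl3, Ccl7 and Ccl12 were the largest by estimate and lay within error of each other. Ccl3 went from 2627, 1904 and 2105 CPM with DMSO to 294, 209 and 259 CPM with defactinib, 8.70-fold lower (log2 -3.12 ± 0.27, adjusted p = 3.51e-07). Its neighbour Ccl4 went from 1903, 1282 and 1592 CPM to 484, 314 and 263 CPM, 4.50-fold lower (log2 -2.17 ± 0.23, adjusted p = 2e-06). Both genes kept separate ranges with and without the inhibitor. Among the CCR2 ligands, Ccl2 went from 296, 195 and 191 CPM to 79.0, 46.6 and 56.9 CPM (log2 -1.90 ± 0.30, adjusted p = 9.26e-05). Ccl7 went to 2.40, 0.866 and 2.44 CPM, on 36 to 103 read pairs (log2 -2.99 ± 0.64, adjusted p = 0.00109). Ccl12 went to 0.744, 0.794 and 0.283 CPM, on 11 to 33 read pairs (log2 -2.79 ± 0.52, adjusted p = 0.000328). All 5 were called under every alternative that gave a value.

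Ccl5 divided the WT LPS defactinib libraries. It was at 321, 283 and 2618 CPM, so that replicates 1 and 2 lay below and replicate 3 above the WT LPS DMSO libraries, and replicate 3 was 8.67 times the mean of the others. The change was -0.43 ± 0.61 with all libraries (adjusted p = 0.565) and -2.24 ± 0.31 without replicate 3 (adjusted p = 4.88e-05), when 6 of the 10 ligands fell and 0 rose, where 19.4% of all genes fell and 10.9% rose. The same replicate was at 0.625 times the mean of the others for Ccl17, 0.659 times for Ccl4 and 0.367 times for Ccl12, and at 0.907 to 1.497 times for the other 6. Ccl22 at 11536, 8955 and 10509.5 CPM differed from WT LPS DMSO by -0.34 ± 0.12 (adjusted p = 0.0232) and Ccl6 at 4681, 4140.0 and 4473 CPM by 0.36 ± 0.12 (adjusted p = 0.0160), both under the fold threshold with ranges that did not overlap. Ccl9 at 4097, 2943 and 4556 CPM and Ccl17 at 5162, 5043 and 3187 CPM overlapped with the DMSO libraries (log2 -0.020 ± 0.15 and -0.24 ± 0.14, adjusted p = 0.915 and 0.158), and without replicate 3 Ccl17 differed by -0.025 ± 0.10. The macrophage marker list summed to 9376 to 9876 CPM with DMSO and 10736 to 15170.4 CPM with defactinib, the dendritic cell list to 16874 to 20612 and 13268 to 18989 CPM. The eosinophil list went from 112 to 137 to 69.8 to 94.9 CPM and the mast cell and basophil list from 45.3 to 58.0 to 9.84 to 34.6 CPM. The part of these markers in the differences was not tested.

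Set against unstimulated WT cells, LPS with defactinib left 2 of the 10 ligands higher (Ccl5 and Ccl22), where 9.1% of all genes were, and 1 lower (Ccl3), where 15.8% were, with median 0.27 over the 10 genes and 0.041 over all genes. Ccl22 stayed at log2 1.83 ± 0.12 above the unstimulated level (adjusted p = 5.77e-08). Ccl5 was at 4.90 ± 0.72 with all libraries (adjusted p = 8.71e-05) and 3.08 ± 0.29 without replicate 3 (adjusted p = 4.34e-06). Ccl3, at 209 to 294 CPM against 639 to 796 CPM unstimulated, was 2.72-fold below its unstimulated level (log2 -1.44 ± 0.26, adjusted p = 0.000378). Ccl2 (-0.61 ± 0.29) and Ccl7 (-1.0 ± 0.62) lay below their unstimulated libraries without passing the test (adjusted p = 0.0923 and 0.183), and Ccl4 (0.54 ± 0.22) and Ccl12 (-0.085 ± 0.52) overlapped with theirs (adjusted p = 0.0509 and 0.901). Ccl6 (0.40 ± 0.12), Ccl9 (0.64 ± 0.15) and Ccl17 (0.14 ± 0.14) were under the fold threshold. Against the unstimulated libraries the neutrophil list went from 53.0 to 71.4 to 113 to 147 CPM and the macrophage list from 9785 to 10128 to 10736 to 15170.4 CPM, and their part was not tested.

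In IRF5 KO macrophages defactinib changed none of the 10 ligands past the threshold: 0 rose (Ccl6 was the 1 at an unadjusted p under 0.05) and 0 fell (Ccl17 and Ccl22 were the 2 at an unadjusted p under 0.05), and DESeq2 and limma-voom also called 0 in each direction. Of all genes, 0.16% rose and 0.76% fell, and the median log2 fold change was -0.19 over the 10 genes and -0.041 over all genes. Without the fold threshold 1 of the 10 rose (Ccl6, 0.47 ± 0.12, adjusted p = 0.0427) and 0 fell, where 1.87% and 1.49% of all genes did.

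Ccl3 was at 448, 452 and 1062 CPM with DMSO and 819, 802 and 816 CPM with defactinib, a change of 0.31 ± 0.25 (95% interval -0.18 to 0.81, adjusted p = 0.486). Ccl4 was at 465, 457 and 723 CPM and 689, 678 and 713 CPM, a change of 0.34 ± 0.22 (95% interval -0.095 to 0.77, adjusted p = 0.372). For both genes, the intervals do not reach the WT estimates of -3.12 and -2.17, whose own error they leave out. The interaction given below compares the genotypes directly. Ccl2 was at 149.9, 142 and 162 CPM with defactinib, a change of 0.0025 ± 0.29 (95% interval -0.57 to 0.57, adjusted p = 0.998). Ccl7 was at 4.69, 4.23 and 5.42 CPM (change -0.66 ± 0.59, 95% interval -1.82 to 0.49, adjusted p = 0.530) and Ccl12 at 0.575, 0.649 and 0.637 CPM (change -0.53 ± 0.51, 95% interval -1.54 to 0.48, adjusted p = 0.564). The macrophage list summed to 9607 to 12319 CPM with DMSO and 17949.7 to 18878 CPM with defactinib in IRF5 KO, the eosinophil list to 67.4 to 82.6 and 45.9 to 47.6 CPM, and their part was not tested. In all 5 genes the 3 defactinib libraries lay between DMSO replicate 3 and the lower of DMSO replicates 1 and 2.

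The direction in IRF5 KO turned with the DMSO libraries used. Without DMSO replicate 3, Ccl7 rose with defactinib (log2 1.03 ± 0.31, adjusted p = 0.0491), Ccl2 differed by 0.57 ± 0.20 (adjusted p = 0.103), Ccl3 by 0.85 ± 0.14 (adjusted p = 0.00180) and Ccl4 by 0.59 ± 0.22 (adjusted p = 0.113). The count was then 1 higher and 0 lower, where 0.611% and 0.842% of all genes were. With DMSO replicate 3 as the lone DMSO library, 2 fell: Ccl7 by 1.92 ± 0.32 and Ccl12 by 1.51 ± 0.45 (adjusted p = 0.000209 and 0.0140). Of all genes 14.6% then fell and 4.63% rose. Ccl22, at 4651, 4677 and 4687 CPM with defactinib, differed by -0.43 ± 0.12 (adjusted p = 0.0537) and Ccl17, at 2496, 2423 and 2626 CPM, by -0.38 ± 0.14 (adjusted p = 0.124), each with all defactinib libraries below all DMSO libraries. Ccl5 went from 151, 148 and 361 CPM to 133, 144 and 125 CPM (log2 -0.72 ± 0.61, adjusted p = 0.512, and -0.16 ± 0.72 without DMSO replicate 3). Ccl9, at 2749.8, 2553 and 2768 CPM, differed by 0.29 ± 0.15 (adjusted p = 0.245).

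**Figure D4:**
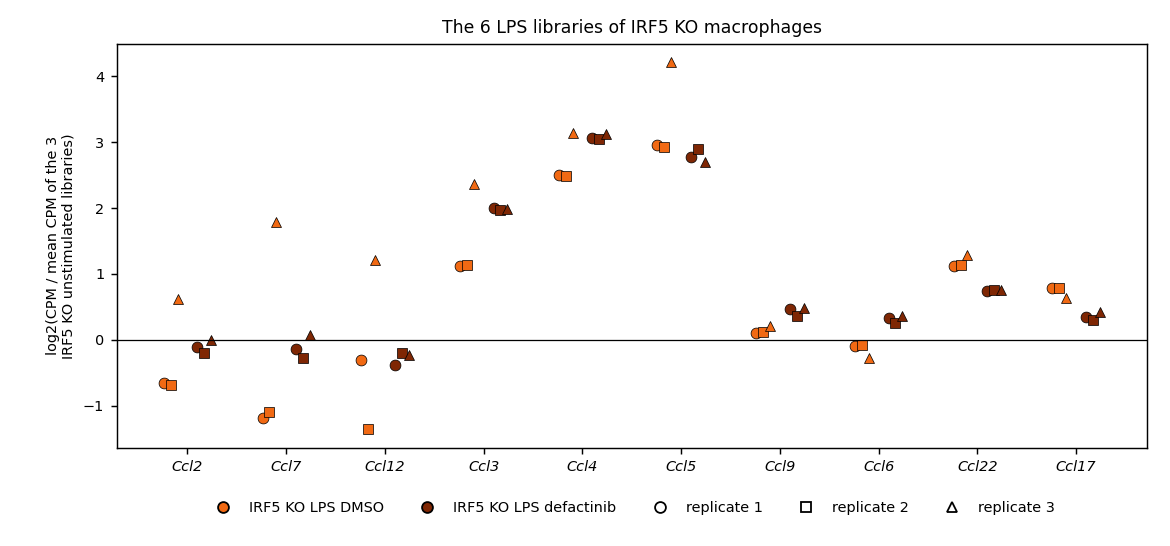
Log2 ratio of each IRF5 KO LPS library to the mean of the 3 IRF5 KO unstimulated libraries for the 10 CC ligands. For Ccl2, Ccl7 and Ccl12, DMSO replicate 3 lies above 0, DMSO replicates 1 and 2 below 0 and the 3 defactinib libraries closer to 0 than replicate 3, with Ccl12 in defactinib replicate 1 below DMSO replicate 1.

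The test of the difference between genotypes in the response to defactinib called 5 of the 10 ligands as lower in WT (Ccl2, Ccl3, Ccl4, Ccl7 and Ccl12), where 12.3% of all genes were, and 0 as higher (0 at an unadjusted p under 0.05, by DESeq2 and by limma-voom), where 10.5% were. The median was -1.11 over the 10 genes and 0.12 over all genes. In log2 units of the WT change minus the IRF5 KO change, the interaction was -3.43 ± 0.37 for Ccl3 (adjusted p = 4.96e-06), -2.51 ± 0.32 for Ccl4 (adjusted p = 2.31e-05) and -1.90 ± 0.42 for Ccl2 (adjusted p = 0.00229). These 3 held under all 27 alternatives, the lone DMSO replicate 3 among them. For Ccl12 it was -2.26 ± 0.72 (adjusted p = 0.0223), which held under 22 of 27, and for Ccl7 -2.33 ± 0.85 (adjusted p = 0.0433), which held under 6 of 26. Leaving out IRF5 KO LPS DMSO replicate 3 gave -4.03 ± 0.41 for Ccl7 (adjusted p = 4.1e-07), -3.24 ± 0.58 for Ccl12 (adjusted p = 0.000168), -2.47 ± 0.28 for Ccl2, -3.97 ± 0.20 for Ccl3 and -2.76 ± 0.30 for Ccl4. Without replicates 1 and 2, Ccl7 was at -1.06 ± 0.45 (adjusted p = 0.0845) and Ccl12 at -1.27 ± 0.60 (adjusted p = 0.121). For Ccl22 the interaction was 0.096 ± 0.17 (95% interval -0.23 to 0.42), for Ccl17 0.14 ± 0.20 (95% interval -0.25 to 0.53), for Ccl6 -0.11 ± 0.16 (95% interval -0.43 to 0.21) and for Ccl9 -0.31 ± 0.21 (95% interval -0.72 to 0.096). For Ccl5 it was 0.29 ± 0.86 with all libraries (adjusted p = 0.819) and -1.51 ± 0.39 without WT LPS defactinib replicate 3 (adjusted p = 0.00743).

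Under LPS with defactinib 2 of the 10 ligands were higher in WT than in IRF5 KO (Ccl5 and Ccl22), where 8.45% of all genes were, and 2 were lower (Ccl2 and Ccl3), where 8.87% were. The median difference was -0.15 over the 10 genes and 0.025 over all genes. Ccl3, higher in WT before stimulation and with LPS alone, was now at 294, 209 and 259 CPM in WT and 819, 802 and 816 CPM in IRF5 KO (log2 -1.68 ± 0.26, adjusted p = 0.000123). Ccl2 was at 79.0, 46.6 and 56.9 CPM and 149.9, 142 and 162 CPM (log2 -1.31 ± 0.30, adjusted p = 0.00278). Ccl4 lay in the same direction with ranges that did not overlap (-0.97 ± 0.22, adjusted p = 0.00301), just under the fold threshold. Defactinib-treated WT cells thus had less Ccl2 and Ccl3 transcript than treated IRF5 KO cells. Ccl22 stayed 2.21-fold higher in WT (log2 1.15 ± 0.12, adjusted p = 2.33e-06). Ccl5 was higher by 3.00 ± 0.66 (adjusted p = 0.00229), and by 1.19 ± 0.28 without WT LPS defactinib replicate 3 (adjusted p = 0.00503). Ccl17 differed by 0.83 ± 0.14, under the fold threshold, and passed it at 1.04 ± 0.09 without that library (adjusted p = 9.74e-07). Ccl6 (-0.28 ± 0.12), Ccl7 (-1.33 ± 0.62), Ccl9 (0.52 ± 0.15) and Ccl12 (-0.024 ± 0.53) did not pass. In WT and IRF5 KO respectively, the macrophage list summed to 10736 to 15170.4 and 17949.7 to 18878 CPM, the mast cell and basophil list to 9.84 to 34.6 and 50.8 to 55.4 CPM and the eosinophil list to 69.8 to 94.9 and 45.9 to 47.6 CPM, none overlapping, and their part was not tested.

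In IRF5 KO cells LPS with defactinib against no stimulation gave 3 higher ligands (Ccl3, Ccl4 and Ccl5), where 7.85% of all genes were, and 0 lower (0 at an unadjusted p under 0.05, by DESeq2 and by limma-voom), where 16.2% were, with median 0.40 over the 10 genes and 0.0036 over all genes. The IRF5 KO LPS DMSO libraries do not enter this comparison. Ccl3 rose by 1.99 ± 0.26 (adjusted p = 6.17e-05), Ccl4 by 3.08 ± 0.24 (adjusted p = 4.64e-07) and Ccl5 by 2.79 ± 0.65 (adjusted p = 0.00257). Ccl22 differed by 0.75 ± 0.12 (adjusted p = 0.000193), under the fold threshold. Ccl2 (-0.10 ± 0.29), Ccl7 (-0.11 ± 0.59) and Ccl12 (-0.28 ± 0.51) did not pass (adjusted p = 0.785, 0.889 and 0.670), nor did Ccl6 (0.32 ± 0.12), Ccl9 (0.44 ± 0.15) and Ccl17 (0.36 ± 0.14). The macrophage list went from 10297 to 14649.9 to 17949.7 to 18878 CPM, the dendritic cell list from 10793 to 12539.7 to 16883 to 18705 CPM and the neutrophil list from 66.3 to 77.8 to 142 to 165 CPM, and their part was not tested.

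The responses followed the gene groups in part. Ccl2, Ccl7 and Ccl12, with gaps of 8.3 and 54.3 kb between them, all rose with LPS and fell with defactinib in WT. In the other group on chromosome 11, Ccl3 and Ccl4, 13.2 kb apart on opposite strands, did the same, while Ccl9 and Ccl6, 9.2 kb apart and lying between Ccl5 and Ccl3, passed the threshold in no comparison. Ccl5, at the left end of that group, rose with LPS and was not called for defactinib in WT with all libraries, falling only without WT LPS defactinib replicate 3. Ccl22 and Ccl17, 58.8 kb apart on chromosome 8, were called together in no comparison with all libraries, and together in WT against IRF5 KO under LPS with defactinib without WT LPS defactinib replicate 3. Ccl22 rose with LPS in both genotypes and Ccl17 differed between the genotypes before stimulation.

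**Figure D5:**
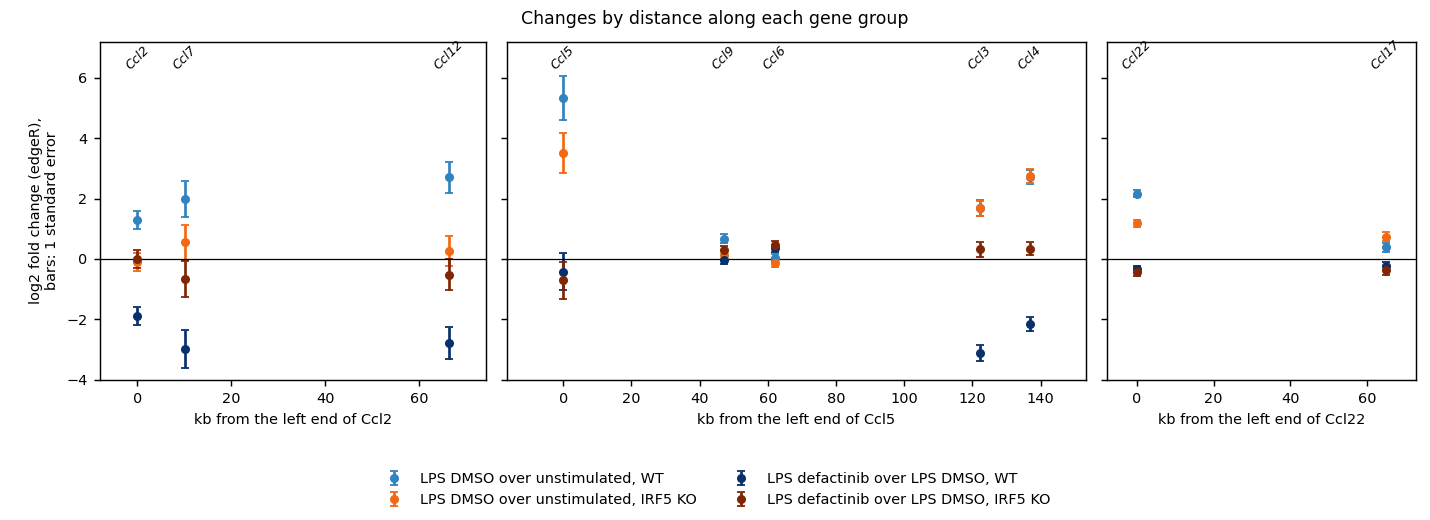
Log2 fold changes with 1 standard error against the distance in kb along each of the 3 gene groups, in 4 comparisons. Both responses in WT are large at Ccl2, Ccl7 and Ccl12 and at Ccl3 and Ccl4, and all 4 changes lie between -0.15 and 0.66 at Ccl9 and Ccl6.

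Likeness of pattern was measured as the mean absolute difference between the group means of 2 genes, in log2 CPM centred per gene, over the 6 groups. By this measure Ccl2 and Ccl7 were nearest to each other among the ligands (0.32), as were Ccl9 and Ccl17 (0.27). Ccl12 was nearest to Ccl7 (0.44), Ccl3 to Ccl7 (0.54), Ccl4 to Ccl3 (0.58), Ccl6 to Ccl9 (0.41) and Ccl22 to Ccl17 (0.48). For Ccl5 the nearest ligand was Ccl22 at 1.07, with a mean in WT LPS defactinib that rests on replicate 3, and no value was computed without that library. The IRF5 KO LPS DMSO means of Ccl7 and Ccl12 likewise rest on replicate 3, which enters their values with Ccl2 and Ccl3. Among tested genes whose log2 CPM averaged 3 or more, the nearest to Ccl5 were AW011738 (0.27), Isg15, a ubiquitin-like protein induced by interferon (0.61), and Pla1a (0.61). Those nearest to Ccl3 were Spry1 (0.25), Dnajb4 (0.29) and Tnfrsf1b, a TNF receptor (0.36). Nearest to Ccl4 were Cd80, a ligand that costimulates T cells (0.34), Rnf19b (0.37) and Bcl2l11 (0.38). The measure is a description of 6 means and depends on how much a gene varies.

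The rest of the ligand family stayed at or below 37.0 CPM. Of 13 other mouse CC ligands found in the table, 4 passed the filter (Ccl1, Ccl24, Ccl25 and Ccl27a), and the lymphoid ligands Ccl19, Ccl21a and Ccl21b had 0 counts in every library. With LPS 1 of the 4 rose in WT (Ccl1) and 0 in IRF5 KO, where 11.6% and 7.07% of all genes did. Ccl1, an attractant of T cells through CCR8, was at 0.899, 0.913 and 1.18 CPM in WT unstimulated, 22.6, 23.8 and 17.8 CPM in WT LPS DMSO and 2.21, 0.890 and 0.283 CPM in WT LPS defactinib. It rose with LPS (4.43 ± 0.70, adjusted p = 0.000121) and fell with defactinib (-4.23 ± 0.70, adjusted p = 0.000140). In IRF5 KO it was at 5.83, 5.79 and 4.86 CPM unstimulated, 5.82, 6.36 and 37.0 CPM with LPS and DMSO and 6.01, 5.69 and 6.80 CPM with LPS and defactinib, with DMSO replicate 3 again the highest. Ccl24, an eosinophil attractant, rose with defactinib in WT (1.62 ± 0.38, adjusted p = 0.00199), from 1.28, 0.563 and 0.712 CPM to 2.28, 1.71 and 3.88 CPM. Ccl1 and Ccl24 were lower in WT than in IRF5 KO before stimulation (-2.46 ± 0.66 and -1.77 ± 0.38, adjusted p = 0.0189 and 0.00447).

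Of 14 CC receptors and decoys listed, 8 passed the filter. In WT 4 rose with LPS (Ccr3, Ccr7, Ccr9 and Ccrl2) and 1 fell (Ccr1), where 11.6% and 9.71% of all genes did. With defactinib 4 fell (Ccr3, Ccr7, Ccr9 and Ccrl2) and 0 rose, where 18.6% and 10.4% of all genes did. Of these, Ccr3 and Ccr9 were close to the floor. In WT unstimulated, LPS DMSO and LPS defactinib, Ccr3 averaged 0.137, 0.64 and 0.057 CPM and Ccr9 0.379, 1.59 and 0.601 CPM. In IRF5 KO 1 rose with LPS (Ccrl2) and 2 fell (Ccr1 and Ccr2), where 7.07% and 6.28% of all genes did, and with defactinib 0 changed, where 0.16% rose and 0.76% fell. With LPS and DMSO 3 were higher in WT than in IRF5 KO (Ccr2, Ccr7 and Ccr9) and 1 was lower (Ccr6), where 14% and 11.8% of all genes were. There Ccr9 averaged 1.59 CPM in WT and 0.34 in IRF5 KO, and Ccr6 0.034 and 0.288 CPM, close to the floor. Ccr2, the receptor of CCL2, CCL7 and CCL12, was at 238, 158 and 214 CPM and 267, 160.3 and 177 CPM in WT without and with defactinib (-0.014 ± 0.32, adjusted p = 0.974). Ccr4, the receptor of CCL17 and CCL22, was between 0.0265 and 2.23 CPM in all libraries. Ccr7, which guides dendritic cells to lymph nodes, was at 298, 368 and 266 CPM in WT LPS DMSO and 13.3, 8.78 and 47.6 CPM with defactinib (-3.74 ± 0.50, adjusted p = 2.34e-05). Ccrl2, an atypical receptor, rose with LPS in both genotypes (5.66 ± 0.23 in WT and 4.33 ± 0.22 in IRF5 KO, adjusted p = 1.48e-10 and 5.66e-09).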

How the data were processed

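RNA was extracted with a column kit and sequenced as 150 bp read pairs. Per the paper's methods, the authors aligned the pairs with STAR (version not given in the sources used here) to mm10, kept uniquely mapped pairs with at most 2 mismatches and made the deposited table of raw counts per Ensembl gene with featureCounts 1.6.3 over exons, strand-specifically. The counts are not normalized, so longer genes collect more. Counts were scaled here by TMM and tested with edgeR 4.0.16 (R 4.3.3), with robust quasi-likelihood F tests on all 18 libraries in 1 model of 6 groups, after filterByExpr left 15663 genes. P-values were adjusted by Benjamini-Hochberg over these genes, and a call needed a false discovery rate under 0.05 and an absolute log2 fold change over 1. Standard errors were taken from the fold change and its F statistic, and 95% intervals from them by the normal multiplier, which makes the intervals somewhat narrow. CPM use TMM-scaled library sizes. The depth of 39282181 to 61949143 counted pairs gives each ligand 11 or more pairs in every library. The alternatives were DESeq2 size factors, library size alone, no filter, DESeq2 1.42.0, limma-voom (limma 3.58.1), a replicate block, fits of only the groups compared, no fold threshold, and leaving out each library, with medians in place of means for the order of levels. On simulated counts for LPS in WT over 15663 genes, 100% of genes raised 4-fold or 8-fold, 95.7% of those lowered to 0.25 and 50% of those raised 2-fold were recovered, and 98% of the last passed the false discovery rate alone. The simulation gave all genes the same spread and held no library standing apart. It therefore does not show the recovery for ligands whose replicates split. A 2-fold rise lies at the threshold itself, so its recovery near 50% follows from the threshold. Named genes were the 10 ligands, members of the lists of other CC ligands and CC receptors, and at most 3 genes nearest in pattern per ligand. Marker lists covered macrophages, dendritic cells, neutrophils, eosinophils, mast cells and basophils, B cells, T and NK cells and stromal cells. An item of the lists is not reported here. Members and lists were chosen with earlier results of these data known. Promoter windows came from RefSeq GRCm38.p6. Figures were drawn with matplotlib 3.10.9 in Python 3.11.15.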

Additional observations from a re-analysis of the deposited data

Results flagged for a closer look

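The response to LPS differed between the genotypes for Ccl2 (interaction 1.40 on the log2 scale, WT change minus IRF5 KO change) and Ccl12 (2.45), by the interaction test of edgeR. The response to defactinib differed by the same kind of test for Ccl2 (-1.90), Ccl3 (-3.43), Ccl4 (-2.51), Ccl7 (-2.33) and Ccl12 (-2.26). The IRF5 KO LPS DMSO libraries enter both tests, and replicate 3 of that group was above replicates 1 and 2 for each of these 5 genes. Without replicates 1 and 2, the LPS interaction was 0.66 ± 0.31 for Ccl2 and 1.47 ± 0.58 for Ccl12, and without replicate 3 it was 1.96 ± 0.27 and 3.43 ± 0.57. The defactinib interaction of Ccl3 was -3.97 ± 0.20 without replicate 3 and -2.70 ± 0.23 without replicates 1 and 2.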

How the results depend on the processing

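Across 110 values, the 10 ligands in 11 comparisons, 41 passed the threshold. None of these 41 changed direction under any alternative, 30 passed under all of them, and the 78 changes of sign were all of values that had not passed. DESeq2 gave no adjusted p for Ccl5 and Ccl7, so its counts leave them out. Ccl12 and Ccl7, the lowest ligands, had the fewest read pairs, and the part of depth in their spread was not tested. Scaling by library size alone shifted the median of all genes by -0.38 for LPS in WT, -0.24 for LPS in IRF5 KO, 0.20 for defactinib in WT, -0.13 for defactinib in IRF5 KO and 0.33 for the genotype by defactinib interaction. Samples of the same replicate number did not deviate together (45 pairs, median r 0.0046, 4 above 0.1), so the numbers were not taken as pairs, and with them as a block no count of ligands called moved. The cause of the changes below was not tested.

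Apart from settings that leave out 1 library, the counts given are those over 1.5 times above or below the count reported, and the others stayed within that factor. The share of all genes called moves with the setting too and is not printed beside these counts, so they are not results about the ligands. For the genotype by LPS interaction, 6.33% of all genes were higher in the main fit and 16.5% without IRF5 KO LPS DMSO replicate 3. The count of ligands called was, without the fold threshold, 1 higher for defactinib in WT, 1 higher for defactinib in IRF5 KO, 1 lower for WT against IRF5 KO unstimulated, 4 higher for WT against IRF5 KO with LPS and defactinib, 4 higher for LPS with defactinib against unstimulated in WT and 7 higher for the same in IRF5 KO. The count of ligands called was, without IRF5 KO LPS DMSO replicates 1 and 2, 2 lower for defactinib in IRF5 KO, 3 higher for WT against IRF5 KO with LPS and DMSO, 0 higher for the genotype by LPS interaction and 3 lower for the genotype by defactinib interaction. The count of ligands called was, by DESeq2, 1 higher for WT against IRF5 KO with LPS and defactinib and 1 higher for LPS with defactinib against unstimulated in WT. The count of ligands called was, under scaling by library size alone, 1 higher for the genotype by LPS interaction and 3 lower for the genotype by defactinib interaction. The count of ligands called was, without the filter on low counts, 1 higher for the genotype by LPS interaction. The count of ligands called was, when only the groups compared were fitted, 3 lower for the genotype by defactinib interaction. Leaving out each of the 18 libraries in turn gave 6 to 7 higher for LPS in WT, 0 to 1 lower for LPS in IRF5 KO, 5 to 6 lower for defactinib in WT, 0 to 1 higher for defactinib in IRF5 KO, 2 to 3 higher for WT against IRF5 KO unstimulated, 4 to 7 higher for WT against IRF5 KO with LPS and DMSO, 2 to 3 higher for WT against IRF5 KO with LPS and defactinib, 2 to 3 lower for WT against IRF5 KO with LPS and defactinib, 1 to 2 lower for LPS with defactinib against unstimulated in WT, 0 to 4 higher for the genotype by LPS interaction and 3 to 6 lower for the genotype by defactinib interaction, with the other counts unmoved.

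Among values that had not passed, these changed sign. Under scaling by library size alone, Ccl6 was -0.34 for LPS in WT, Ccl9 was -0.085 for LPS in IRF5 KO, Ccl9 was 0.18 for defactinib in WT, Ccl2 was -0.17 for defactinib in IRF5 KO, Ccl22 was -0.046 for WT against IRF5 KO unstimulated, Ccl12 was 0.059 for WT against IRF5 KO with LPS and defactinib, Ccl17 was -0.029 for LPS with defactinib against unstimulated in WT, Ccl6 was -0.040 and Ccl17 was -0.0078 for the same in IRF5 KO, Ccl3 was -0.18 for the genotype by LPS interaction and Ccl6 was 0.21 and Ccl9 was 0.016 for the genotype by defactinib interaction. Without IRF5 KO LPS DMSO replicates 1 and 2, an alternative chosen after seeing the data, Ccl2 was 0.63 for LPS in IRF5 KO, Ccl2 was -0.73, Ccl3 was -0.40 and Ccl4 was -0.077 for defactinib in IRF5 KO, Ccl2 was -0.15 and Ccl7 was -0.26 for WT against IRF5 KO with LPS and DMSO and Ccl3 was -0.72 for the genotype by LPS interaction. By limma-voom, Ccl7 was -0.066 and Ccl12 was -0.036 for LPS in IRF5 KO and Ccl5 was -0.63 for the genotype by defactinib interaction. When only the groups compared were fitted, Ccl9 was 0.012 for defactinib in WT, Ccl2 was -0.017 for defactinib in IRF5 KO, Ccl12 was 0.014 for WT against IRF5 KO with LPS and defactinib and Ccl3 was -0.026 for the genotype by LPS interaction. Without the filter on low counts, Ccl2 was -0.024 for defactinib in IRF5 KO and Ccl3 was -0.012 for the genotype by LPS interaction. With the replicate number as a block, Ccl5 was -0.33 for the genotype by defactinib interaction. Values that turned sign when a library was left out ranged as follows: Ccl6 -0.081 to 0.094 for LPS in WT, Ccl2 -0.67 to 0.13, Ccl7 -1.15 to 1.0 and Ccl12 -0.73 to 0.67 for LPS in IRF5 KO, Ccl5 -2.24 to 0.043 and Ccl9 -0.14 to 0.15 for defactinib in WT, Ccl2 -0.23 to 0.57, Ccl7 -1.11 to 1.03 and Ccl12 -0.95 to 0.45 for defactinib in IRF5 KO, Ccl12 -0.50 to 0.018 and Ccl22 -0.0070 to 0.21 for WT against IRF5 KO unstimulated, Ccl12 -0.26 to 0.33 for WT against IRF5 KO with LPS and defactinib, Ccl12 -0.33 to 0.26 for LPS with defactinib against unstimulated in WT, Ccl3 -0.23 to 0.54 and Ccl4 -0.20 to 0.22 for the genotype by LPS interaction and Ccl5 -1.51 to 0.77 and Ccl6 -0.14 to 0.037 for the genotype by defactinib interaction.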
